A study of Saccharomyces cerevisiae with 4 samples.

Results

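The genes described here are the 31 yeast genes of sterol synthesis, uptake and esterification, of 6301 open reading frames (ORFs) listed in the deposited table. They were chosen by name and pathway role, with earlier results of these data known: 9 genes of the mevalonate pathway, 15 genes that act from farnesyl diphosphate to ergosterol (called late ergosterol genes below), the transcription factors UPC2 and ECM22, and 5 genes of sterol uptake or storage. On each of 4 two-color arrays, cDNA from Saccharomyces cerevisiae S288c in a nitrogen-poor minimal medium (MM) was hybridized together with cDNA of the same strain in nitrogen-rich synthetic complete medium (SC). SC cells were grown at 30 °C to mid log phase, at an optical density of 0.4. MM cells were taken from such a culture and held for 12 h in a medium that lacked amino acids and adenine and held ammonium sulfate at 0.025%. The limited ammonium, the missing amino acids and adenine and the state of growth thus differed together and cannot be told apart, and whether the SC reference was also held for 12 h is not given in the sources used here. S288c carries a transposon insertion in HAP1, a heme-dependent activator of some sterol genes, so both media were compared in a strain with an altered copy of that regulator.

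Each value is a log2 ratio of MM over SC, so that 1 stands for a doubled and -1 for a halved transcript level relative to the average well measured spot. Reverse transcription was primed with a degenerate multi-targeted primer (MTP), which per the study's methods was mixed with oligo-dT. Labeling was reciprocal, 2 arrays with either dye on MM. The labels disagree on which dye: where the titles put MM in Cy5, the descriptions of the channels put it in Cy3, but either source divides the arrays in the same way. The direction of the ratio was settled against the study's own table of relative levels, with which each array correlated positively across genes (r between 0.964 and 0.983, over 1737 to 1924 ORFs of its copied part). Values on single arrays are given below in the order MM in Cy5 by title, replicates 1 and 2, then SC in Cy5 by title, replicates 1 and 2. Each replicate had its own reverse transcription reaction, and the number of cultures is not given in the sources used here, so the SDs and p-values measure the spread between arrays, which may be technical. The number of arrays limits the precision. The second array with SC in Cy5 carried the fewest values, 5548 against 5846 to 5992 on the others. Its median log2 ratio, 0.11, was the farthest from 0, whereas the other medians lay between -0.03 and 0.06. A ratio in a bulk culture does not separate fewer cells that express a gene from less RNA per cell.

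Ergosterol is the main sterol of yeast membranes, as cholesterol is in animals. The mevalonate pathway turns acetyl-CoA into farnesyl diphosphate, which also feeds dolichol, ubiquinone, heme A and protein prenylation. Squalene synthase commits farnesyl diphosphate to sterols. Some of the steps after squalene need molecular oxygen, and some of these also need heme. The pathway is known for its response to oxygen, heme and sterol levels through Upc2 and its paralog Ecm22. Sterol in excess is esterified and stored in lipid droplets, and sterol is taken up from the medium when oxygen is lacking.

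Of the 31 sterol genes, 27 had values on all 4 arrays, 3 on 3 arrays and 1, ERG6, on 2. A limma fit covered the 30 genes measured on 3 or 4 arrays together with all other such ORFs, and a gene was called at an adjusted p (Benjamini-Hochberg) of 0.05. In MM, 7 sterol genes were called higher and 9 lower, and 14 were not called. Among all 5956 ORFs tested, 33.8% were called higher, 31.5% lower and 65.3% in either direction, against 53.3% of the sterol genes, so the number of calls among sterol genes did not stand above that of the array as a whole. The median log2 ratio was 0.01 for the sterol genes and 0.03 for all ORFs. A mean of at least 0.5 in size was reached by 9 of the 30 genes (30.0%), compared with 30.6% of all ORFs. The ratio had the same sign on every array with a value for 21 of the 30, and for 72.2% of all ORFs. The sterol genes thus showed no common shift, and the account below concerns which of them moved and which did not.

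**Figure D1:**
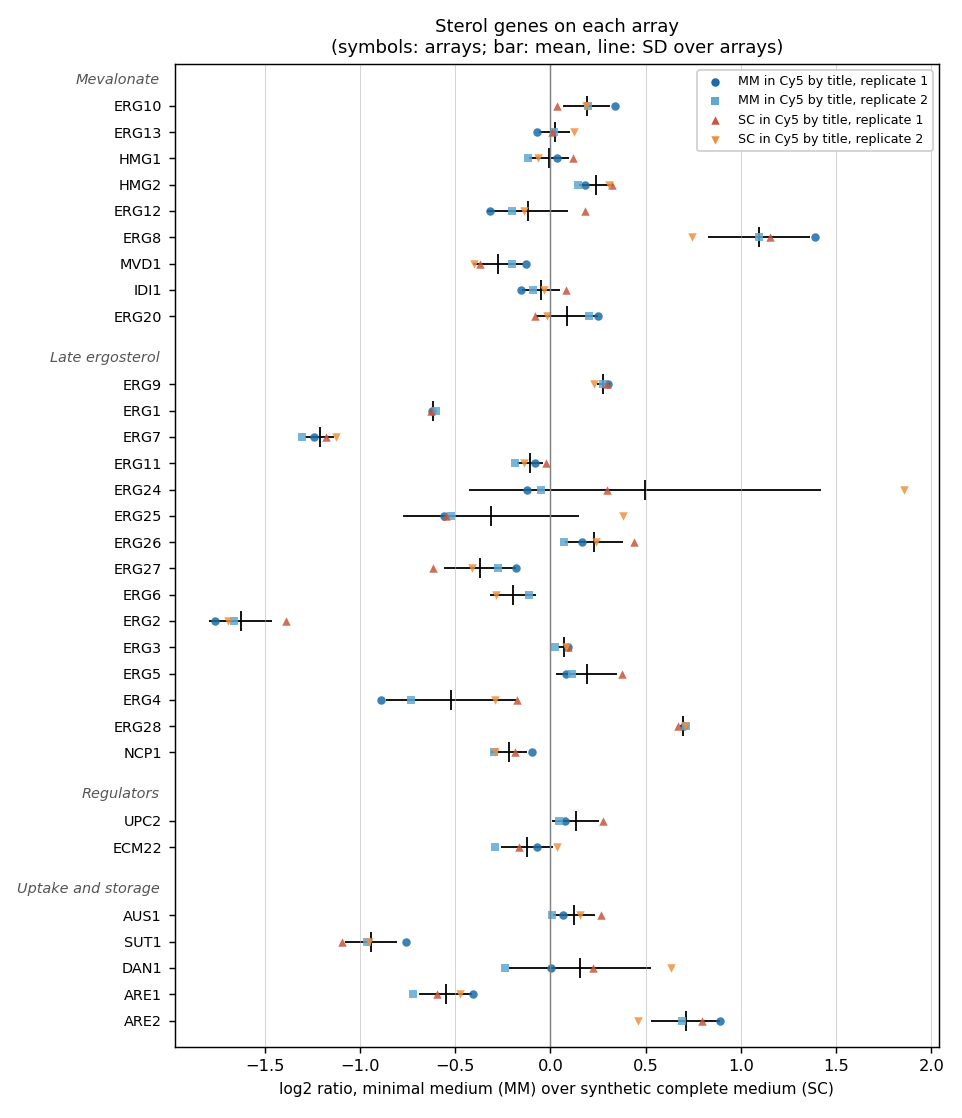
Log2 ratio of MM over SC (x axis) for each of the 31 sterol genes (rows, in pathway order within 4 groups). Symbols are single arrays, the vertical bar is the mean and the horizontal line the SD over arrays. ERG2 and ERG7 sit lowest, between -1.76 and -1.12 on every array, ERG8 sits highest with a mean of 1.10, and 1 array of ERG24 and of ERG25 lies apart from the other arrays of that gene.

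Changes of at least 1 on the log2 scale were limited to 3 members. ERG2 (YMR202W), the sterol isomerase of the late pathway, had log2 ratios of -1.76, -1.66, -1.39 and -1.69. It was thus lower in MM on every array, by 3.09-fold in the mean (-1.63 ± 0.16, SD, n = 4 arrays; limma's adjusted p = 5.83e-06). ERG7 (YHR072W), lanosterol synthase, closes oxidosqualene into the first sterol of the pathway. Its values were -1.24, -1.30, -1.18 and -1.12, a 2.32-fold lower level with little spread (-1.21 ± 0.08, SD, n = 4 arrays; limma's adjusted p = 6.15e-06). ERG8 (YMR220W), phosphomevalonate kinase, went the other way, with 1.39, 1.10, 1.16 and 0.74. Its level was 2.14-fold higher in MM (1.10 ± 0.27, SD, n = 4 arrays; limma's adjusted p = 0.000131), and all its arrays lay above every array of the other mevalonate genes.

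Apart from ERG8, the mevalonate genes stayed close to 0. Of the 9 genes, 3 were called higher and 1 lower, beside 33.8% and 31.5% of all ORFs, and the median log2 ratio was 0.02. ERG8 alone reached 0.5 in size (11.1% of the group, against 30.6% of all ORFs). On the single arrays the group's median lay between -0.02 and 0.08. HMG2 (YLR450W), an isozyme of HMG-CoA reductase, the main point of control of the pathway, was higher on every array, at 0.18, 0.15, 0.32 and 0.31 (0.24 ± 0.09, SD, n = 4 arrays; limma's adjusted p = 0.0106). MVD1 (YNR043W, also ERG19), mevalonate diphosphate decarboxylase, was lower on every array, at -0.13, -0.20, -0.37 and -0.40 (-0.27 ± 0.13, SD, n = 4 arrays; limma's adjusted p = 0.0102). MVD1 acts directly after Erg8, and the consecutive steps were thus called in opposite directions, with no overlap between their arrays. ERG10 (YPL028W), the acetoacetyl-CoA thiolase that opens the pathway, was at 0.34, 0.20, 0.04 and 0.19 (0.19 ± 0.12, SD, n = 4 arrays; limma's adjusted p = 0.0393). It was the weakest call of the group, and it was lost without either array with MM in Cy5 (0.14 without replicate 1, 0.19 without replicate 2), without the second array with SC in Cy5 (0.19) and with the replicate number as a block (0.19).

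The other 5 mevalonate genes were not called. ERG13 (YML126C), HMG-CoA synthase, was at 0.02 ± 0.08 (SD, n = 4 arrays), with a 95% interval of -0.12 to 0.16. HMG1 (YML075C), the other HMG-CoA reductase, was at -0.01 ± 0.11 (SD, n = 4 arrays), with an interval of -0.16 to 0.14. Such intervals reflect the spread between arrays, and held only values far smaller than that of ERG8. IDI1 (YPL117C), isopentenyl diphosphate isomerase, was at -0.05 ± 0.10 (SD, n = 4 arrays; 95% interval -0.20 to 0.10). ERG12 (YMR208W), mevalonate kinase, had values of -0.32, -0.20, 0.18 and -0.14, with 1 array on the other side of 0. Without that array, the first with SC in Cy5, its mean was -0.22 in place of -0.12, and it was called lower. ERG20 (YJL167W), farnesyl diphosphate synthase, was positive on both arrays with MM in Cy5 (0.25 and 0.21) and negative on both with SC in Cy5 (-0.08 and -0.02), so that its mean of 0.09 averages over orientations of opposite sign.

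**Figure D2:**
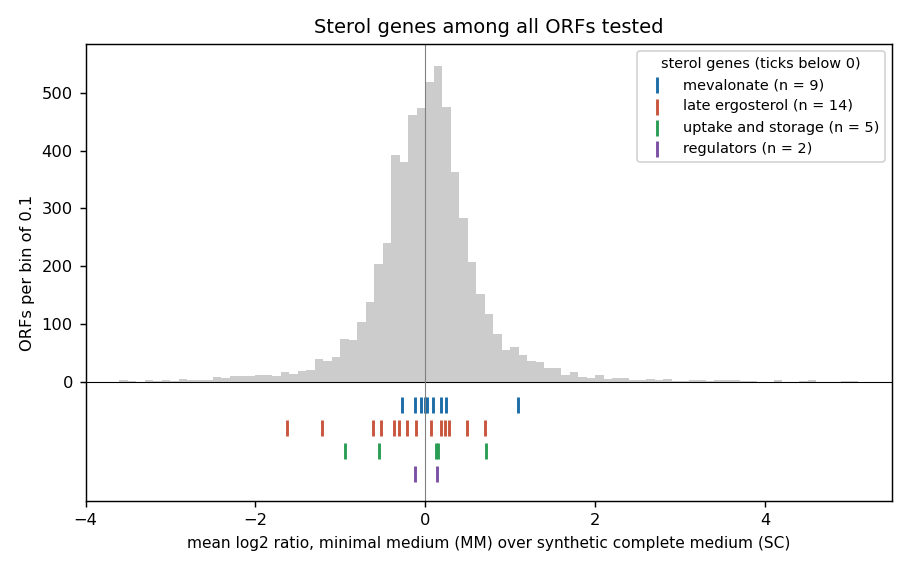
Histogram of the mean log2 ratio of MM over SC (x axis) of the 5956 ORFs tested, as ORFs per bin of 0.1 (y axis). Colored ticks under the axis mark the 30 sterol genes tested, by group; mevalonate genes lie near 0 except ERG8 at 1.10, whereas late ergosterol genes run from -1.63 to 0.70.

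The late ergosterol genes ran from -1.63 to 0.70 in the mean. Of the 14 tested, 6 were called lower and 3 higher (64.3% called, against 65.3% of all ORFs), and the median log2 ratio was -0.16. A size of 0.5 was reached by 5 (35.7%, against 30.6% of all ORFs), so neither share stood far from that of the whole array. The median of the late group was below 0 on every array, from -0.23 to -0.03. The difference between the late and the mevalonate genes was not tested.

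At the entry to the sterol branch, neighboring steps were called in opposite directions. ERG9 (YHR190W), squalene synthase, was higher on every array, at 0.30, 0.28, 0.30 and 0.23 (0.28 ± 0.03, SD, n = 4 arrays; limma's adjusted p = 0.00325). ERG1 (YGR175C), squalene epoxidase, which makes the first oxygen-dependent step, was lower at -0.62, -0.60 and -0.63 on the 3 arrays with a value. Its 1.53-fold lower level had the smallest SD of all 31 genes (-0.62 ± 0.01, SD, n = 3 arrays; limma's adjusted p = 0.000438), although the dye orientations were not balanced there. ERG7, the step after ERG1, was lower still, as given above. ERG11 (YHR007C), the cytochrome P450 that demethylates lanosterol and the target of azole drugs, was slightly negative on every array, between -0.18 and -0.02, and was not called (-0.11 ± 0.07, SD, n = 4 arrays; limma's adjusted p = 0.133).

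Next in the pathway, ERG24 and ERG25 each had 1 array that decided the mean. ERG24 (YNL280C), the reductase that acts on the product of Erg11, had -0.12, -0.05, 0.30 and 1.86. Its mean of 0.50 ± 0.93 (SD, n = 4 arrays) was not called, and without the second array with SC in Cy5 it was 0.04. ERG25 (YGR060W), the methyl sterol oxidase, had -0.56, -0.52, -0.55 and 0.38. The first 3 arrays agree closely and the last, again the second with SC in Cy5, lies on the other side of 0. With all arrays ERG25 was not called (-0.31 ± 0.46, SD, n = 4 arrays; limma's adjusted p = 0.133), and without that array its mean was -0.54 and it was called lower.

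Erg25 works with Erg26, Erg27 and the scaffold Erg28, which holds these enzymes together at the endoplasmic reticulum while methyl groups are removed from the sterol. ERG28 (YER044C) was higher in MM at 0.70, 0.71, 0.67 and 0.71, a 1.62-fold change that was almost the same on each array (0.70 ± 0.02, SD, n = 4 arrays; limma's adjusted p = 4.08e-05). ERG26 (YGL001C), the decarboxylating dehydrogenase, was also higher, at 0.17, 0.07, 0.44 and 0.24 (0.23 ± 0.15, SD, n = 4 arrays; limma's adjusted p = 0.0289), a call that was lost without either array with SC in Cy5 (0.16 without replicate 1 and 0.23 without replicate 2). ERG27 (YLR100W), the ketoreductase, was lower on every array, at -0.18, -0.27, -0.62 and -0.41 (-0.37 ± 0.19, SD, n = 4 arrays; limma's adjusted p = 0.00671). Its orientation pairs did not overlap, and the calls of ERG27 and ERG26 were lost when each ORF kept its own variance. The genes of this complex were therefore not called in a common direction.

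In the steps that finish ergosterol, ERG2 was far below the genes on either side. ERG6 (YML008C), the sterol methyltransferase before it, had values on 2 arrays only, -0.11 and -0.28, and was not tested in the fit; with ORFs of at least 2 values admitted, its adjusted p was 0.131 from limma (95% interval -0.45 to 0.05). ERG3 (YLR056W), the desaturase after it, was at 0.07 ± 0.03 (SD, n = 4 arrays; 95% interval -0.05 to 0.20) and was not called. ERG5 (YMR015C), a second cytochrome P450 of the pathway, was at 0.08, 0.11 and 0.37 on 3 arrays and was not called either (adjusted p = 0.0953 from limma). ERG4 (YGL012W), the reductase of the last step, was lower on every array, but by unequal amounts: -0.89 and -0.73 with MM in Cy5 by title, -0.18 and -0.29 with SC in Cy5. Its mean of -0.52 ± 0.34 (SD, n = 4 arrays; limma's adjusted p = 0.0095) therefore joins orientation pairs that do not overlap, and the call was lost when each ORF kept its own variance, without limma's moderation. NCP1 (YHR042W), the reductase that passes electrons to the P450 enzymes and to squalene epoxidase, was modestly lower, between -0.30 and -0.10 (-0.22 ± 0.10, SD, n = 4 arrays; limma's adjusted p = 0.0171). The call of NCP1 was lost without the second array of either orientation (-0.19 in both cases).

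**Figure D3:**
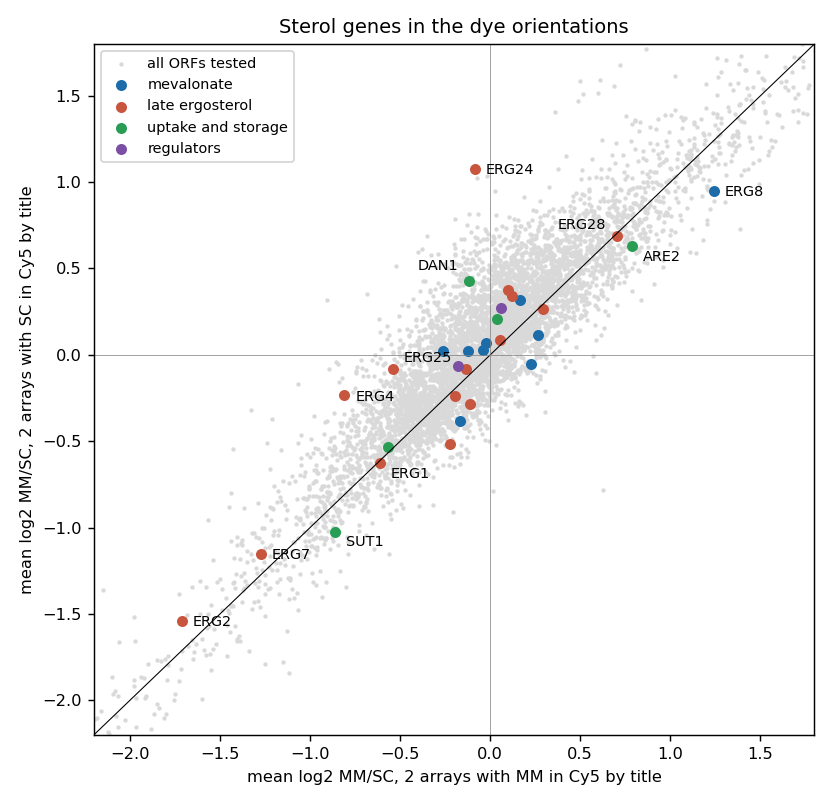
Mean log2 ratio of MM over SC on the 2 arrays with MM in Cy5 by title (x axis) against that on the 2 arrays with SC in Cy5 (y axis), for the ORFs tested that lie within the axes (grey) and the 31 sterol genes (colored by group), with the line of equal values. For genes with fewer values a pair can be 1 array. ERG24, DAN1, ERG4 and ERG25 lie farthest from the line among the sterol genes, whereas ERG1 and ERG28 lie on it.

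Arrays of the same dye orientation correlated with each other at r of 0.936 to 0.960, and arrays of opposite orientation at 0.898 to 0.934. A dye orientation term was fitted to see how far the array pairs differed. It was at or under an adjusted p of 0.05 in limma for 1 of 5956 ORFs and for 0 of 30 sterol genes. With 2 arrays per orientation, that does not show that orientation had no effect. An unadjusted p of 0.05 or less in limma was found for 1312 of the 5956 ORFs and 4 of the 30 sterol genes. Those sterol genes were ERG4 (MM in Cy5 minus SC in Cy5 of -0.58; unadjusted p = 0.00184 in limma), DAN1 (-0.55; 0.0186), ERG20 (0.28; 0.0218) and ERG27 (0.29; 0.0419). ERG24 had a larger difference, -1.16, that rests on 1 array. Among genes called on 4 arrays, the orientation pairs also did not overlap for HMG2, MVD1, ERG10, ERG7 and ERG26, besides ERG4 and ERG27. The share of such genes over all ORFs was not computed, so the list does not set these genes apart from other ORFs. With the orientation term in the fit, ERG4 and ERG27 were still called lower, and ERG5 was called higher (0.24).

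Sterol regulators were near 0. UPC2 (YDR213W), the zinc cluster factor that activates sterol genes when sterol is low, was at 0.08, 0.05 and 0.27 on 3 arrays (0.13 ± 0.12, SD, n = 3 arrays; limma's adjusted p = 0.178). ECM22 (YLR228C), its paralog, was at -0.07, -0.29, -0.17 and 0.03 (-0.12 ± 0.14, SD, n = 4 arrays; limma's adjusted p = 0.156). Neither was called, and their 95% intervals ran from -0.06 to 0.32 and from -0.29 to 0.04. These are transcript ratios, and the activity of the factors was not measured.

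Storage genes moved apart. ARE2 (YNR019W), the acyltransferase known to form most steryl ester under aerobic conditions, was higher in MM at 0.89, 0.69, 0.80 and 0.46, a 1.64-fold change (0.71 ± 0.18, SD, n = 4 arrays; limma's adjusted p = 0.000306). ARE1 (YCR048W), its paralog, known to gain weight when heme is lacking, was lower at -0.41, -0.72, -0.60 and -0.47, a 1.46-fold change (-0.55 ± 0.14, SD, n = 4 arrays; limma's adjusted p = 0.000509). No array of ARE1 came within reach of an array of ARE2. ARE1 overlaps YCR050C in the R64 gene table, whose own spot was at 0.19 and was not called, and spots of double-stranded PCR product do not tell strands apart.

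Of the uptake genes, SUT1 alone was called. SUT1 (YGL162W), a transcription factor that promotes sterol uptake under low oxygen, was lower at -0.76, -0.96, -1.09 and -0.96, a 1.92-fold change (-0.94 ± 0.14, SD, n = 4 arrays; limma's adjusted p = 3.93e-05). AUS1 (YOR011W), an ABC transporter that takes up sterol, was slightly positive on every array, at 0.07, 0.01, 0.27 and 0.15, and was not called (0.12 ± 0.11, SD, n = 4 arrays; limma's adjusted p = 0.124). DAN1 (YJR150C), a cell wall mannoprotein made in anaerobic cells, scattered widely at 0.00, -0.24, 0.23 and 0.63 (0.16 ± 0.37, SD, n = 4 arrays; limma's adjusted p = 0.338), and without the second array with SC in Cy5 its mean was -0.004. DAN1 belongs to a family of similar wall proteins that can share hybridization signal. Together, 1 of the 5 uptake and storage genes was called higher and 2 lower, beside 33.8% and 31.5% of all ORFs. A size of 0.5 was reached by 3 of these 5 (60.0%, against 30.6% of all ORFs), a share that rests on few genes.

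**Figure D4:**
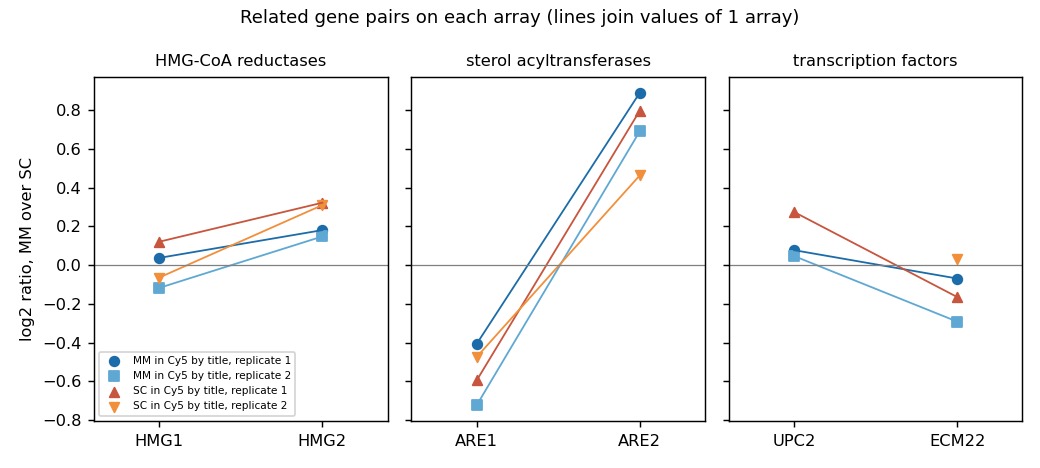
Log2 ratio of MM over SC (y axis) for the genes of 3 related pairs, with symbols for single arrays and lines joining the values of 1 array. ARE1 lies below and ARE2 above 0 on all 4 arrays, HMG2 lies above HMG1 on all 4, and UPC2 lies above ECM22 on the 3 arrays that measured both.

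The related genes were compared within each array, for 3 pairs. ARE1 minus ARE2 was -1.30, -1.41, -1.39 and -0.94, so the acyltransferase genes differed by 2.39-fold in their response (-1.26 ± 0.22, SD, n = 4 arrays; 95% interval -1.61 to -0.91). HMG1 minus HMG2 was -0.14, -0.27, -0.20 and -0.37, with HMG1 the lower in 4 of 4 arrays (-0.25 ± 0.10, SD, n = 4 arrays; 95% interval -0.40 to -0.09). For both pairs the exact two-sided sign-flip permutation test gave p = 0.125, the smallest that 4 arrays allow (0.188 after Benjamini-Hochberg adjustment over the 3 pairs). UPC2 minus ECM22 was 0.15, 0.34 and 0.44 (0.31 ± 0.15, SD, n = 3 arrays; 95% interval -0.06 to 0.68; exact permutation p = 0.25, the smallest that 3 arrays allow). Paralogs can cross-hybridize on spots of whole ORFs, and their sequence identity was not computed here.

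Beyond the pathway itself, 51 other genes of sterol handling were described from a list arranged by role. Of these, 10 were called higher and 22 lower, against 33.8% and 31.5% of all ORFs, with a median log2 ratio of -0.14. Genes listed under sterol transport made up the largest part of the list, and 9 of 17 were called lower and 1 higher (58.8% called, against 65.3% of all ORFs). That heading took in the oxysterol-binding protein family, of which not every product need carry sterol. From each role, the gene with the largest change that was called and had the same sign on every array is named here.

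TGL1 (YKL140W), a steryl ester hydrolase, was lower at -1.42, -1.39, -1.58 and -1.71, a 2.88-fold change (-1.53 ± 0.15, SD, n = 4 arrays; limma's adjusted p = 6.02e-06). Of the 3 steryl ester hydrolase genes, 2 were called lower and 1 higher, where 65.3% of all ORFs were called. OSH6 (YKR003W), of the oxysterol-binding protein family, whose product is known to carry phosphatidylserine, was lower on every array, down to -1.27 on the first with SC in Cy5, a 2.23-fold change (-1.16 ± 0.11, SD, n = 4 arrays; limma's adjusted p = 1.14e-05). ATF2 (YGR177C), an acetyltransferase that modifies sterols for export, was lower by 1.36-fold (-0.44 ± 0.05, SD, n = 4 arrays; limma's adjusted p = 0.000452). The other of the 2 sterol acetylation genes, SAY1 (YGR263C), was called higher (0.22; limma's adjusted p = 0.0108).

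Among partners and regulators, DAP1 (YPL170W), a heme-binding protein that assists Erg11, was lower at -0.72, -0.89, -0.89 and -0.85 (-0.84 ± 0.08, SD, n = 4 arrays; limma's adjusted p = 3.01e-05), while ERG11 itself was not called. CYB5 (YNL111C), the other of the 2 partner genes, was at 0.30 and was not called. SUT2 (YPR009W), a paralog of SUT1, was higher at 0.91, 0.57, 0.81 and 0.82 (0.78 ± 0.14, SD, n = 4 arrays; limma's adjusted p = 0.000106), the opposite sign to SUT1 on every array. Of the 4 regulators on this list, SUT2 was the 1 called higher. HAP1 (YLR256W) was the 1 called lower (-0.24; limma's adjusted p = 0.00705), beside 33.8% and 31.5% of all ORFs. UBC7 (YMR022W), a ubiquitin-conjugating enzyme in the degradation of Hmg2, was higher at 0.80 ± 0.11 (SD, n = 4 arrays; limma's adjusted p = 5.97e-05). Of 6 genes on Hmg2 turnover, 2 were called higher and 1 lower, beside 33.8% and 31.5% of all ORFs.

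Of 7 other genes for cell wall mannoproteins of anaerobic cells, 1 was called higher and 3 lower (57.1% called, against 65.3% of all ORFs). TIR1 (YER011W) was the largest, at -0.57 ± 0.15 (SD, n = 4 arrays; limma's adjusted p = 0.000489). For the branches that leave farnesyl diphosphate, 3 of 10 genes were called higher and 4 lower (70.0% called, against 65.3% of all ORFs). SRT1 (YMR101C), a prenyltransferase for long dolichols, was at 1.02, 1.74 and 1.10 on 3 arrays (1.29 ± 0.39, SD, n = 3 arrays; limma's adjusted p = 0.000691), the largest increase of the 51 genes.

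**Figure D5:**
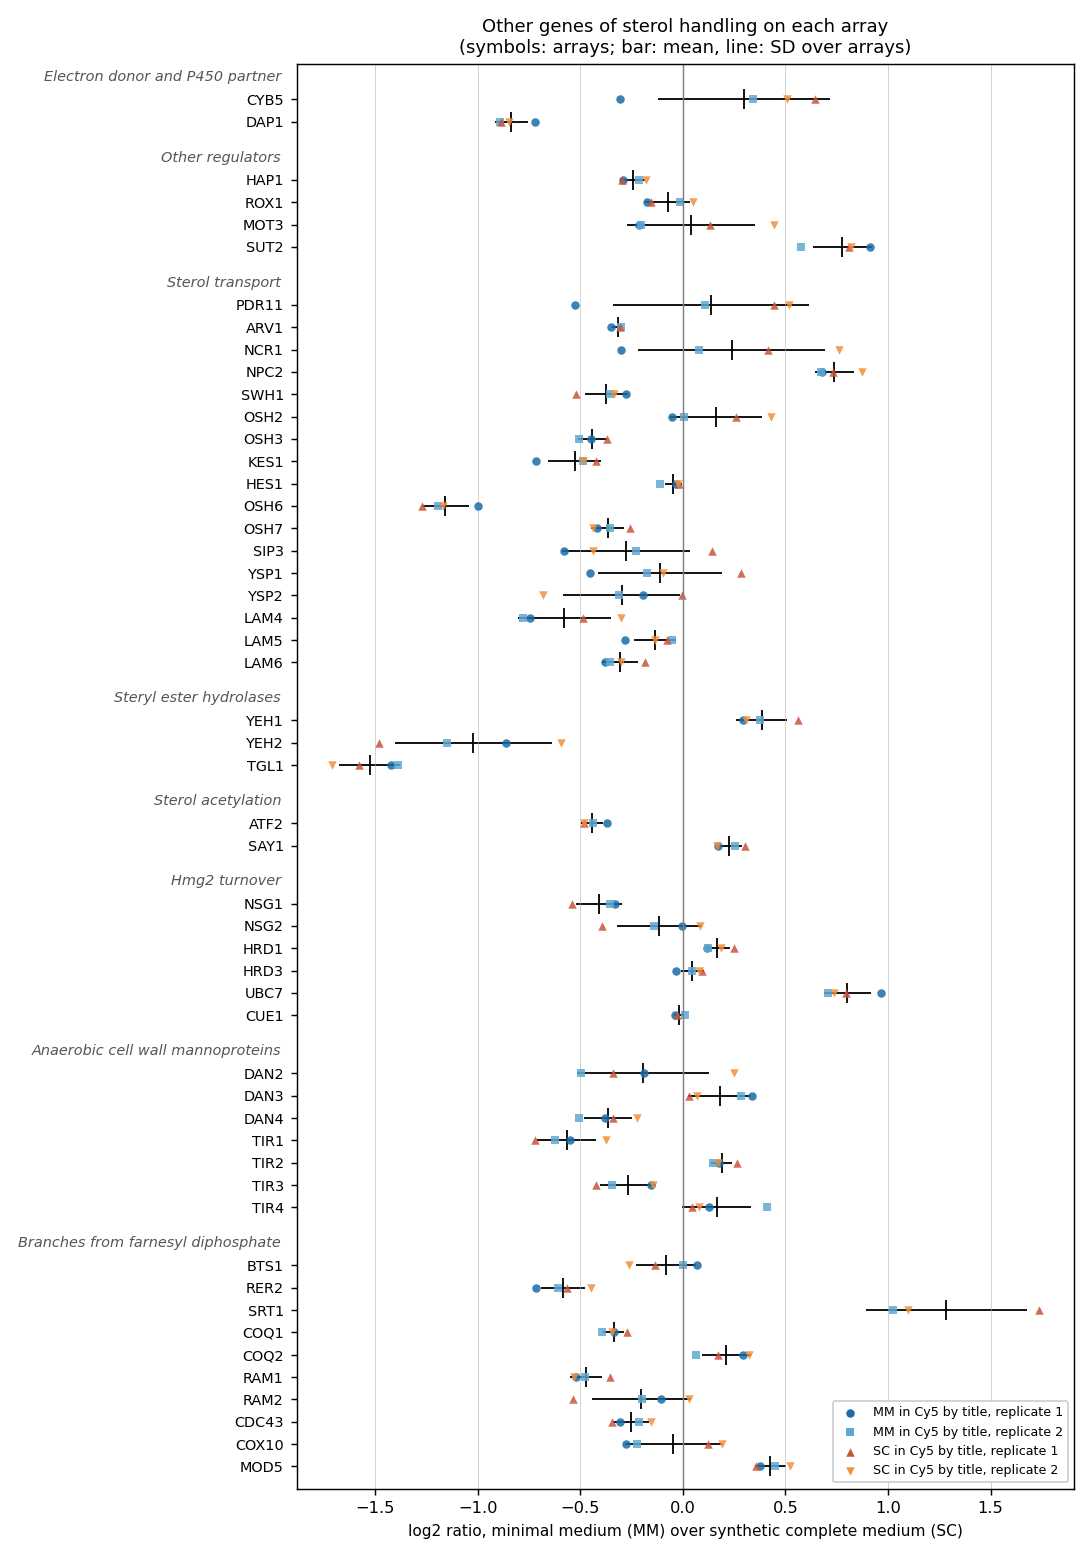
Log2 ratio of MM over SC (x axis) for 51 other genes of sterol handling (rows, grouped by role). Symbols are single arrays, the vertical bar is the mean and the horizontal line the SD over arrays. TGL1 and OSH6 lie lowest among genes with values below -1 in the mean, and SRT1 lies highest.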

How the data were processed

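Arrays of PCR-amplified ORFs were scanned with a GenePix instrument. The authors subtracted background, normalized by the mean of well measured spots and deposited a log2 ratio for each ORF on each array, with no value where a spot was not well measured. Depth does not apply to arrays. The log base and the direction, MM over SC, are not stated in the table, and were taken from the fit to the study's table of relative levels. Gene names came from the RefSeq R64 table, which matched 5801 of 6301 ORF identifiers. The build behind the spots is not given in the sources used here, so no coordinates are printed.

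The mean ratio of each of 5956 ORFs with values on at least 3 of the 4 arrays was tested against 0 with limma 3.58.1 in R 4.3.3, with Benjamini-Hochberg adjustment over all of them and calls at 0.05. The fit was tested on simulated data in which a small share of ORFs had large known shifts and no dye orientation effect was present. That run does not cover the smaller changes or the orientation differences of these arrays. Paralogs were compared by exact sign-flip permutation. BAGEL, the authors' Bayesian program, was not run. The 31 genes were all described, and the genes of the related list were named by largest called change with 1 sign per role. Members and lists were chosen with earlier results of these data known. A planned search of promoter motifs was not run, since no sequence was used here. Alternatives covered single arrays left out, centring, scale, dye orientation, replicate block, filters, variance, averaging and thresholds.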

Additional observations from a re-analysis of the deposited data

Results flagged for a closer look

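The second array with SC in Cy5 by title held the value of ERG25 that stood apart from the rest of its group, 0.38 against -0.56 to -0.52. Its gap to the nearest other array was 0.959 of the whole range (Dixon's test at the 95% level). ERG3 had such a gap of 0.881, with 0.02 on the second array with MM in Cy5 against 0.08 to 0.09, although its whole range was small. Such gaps were found for 2 of 27 sterol genes and for 4.22% of all ORFs with 4 values, and chance gives about 5%.

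The dye orientations gave opposite signs on every array for ERG20 and ERG24. Pair means alone also had opposite signs for DAN1 (-0.12 with MM in Cy5 by title and 0.43 with SC in Cy5), ERG12, ERG13, HMG1 and IDI1. The share of all ORFs with such opposite signs was not computed, so these genes are not set apart from other ORFs by them. Over all ORFs tested, 72.2% had the same sign on every array with a value. The pair with MM in Cy5 minus the pair with SC in Cy5 was 0.28 for ERG20, with an adjusted p of 0.170 for the orientation term in limma. For ERG24 it was -1.16, with an adjusted p of 0.234 in limma, and the array at 1.86 carries most of that difference.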

How the results depend on the processing

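Of the 16 sterol genes called, 9 kept their direction and call under all alternatives that tested them (ERG8, ERG9, ERG1, ERG7, ERG2, ERG28, SUT1, ARE1 and ARE2), and 0 changed sign. ERG1, with values on 3 arrays, was not tested where values on all 4 were required. At an adjusted p of 0.01 in limma, 4 sterol genes were called higher in place of 7, and 1 mevalonate gene was called in place of 4. Among all ORFs, 1541 were then called higher in place of 2016, and 1468 lower in place of 1875. With values required on all 4 arrays the median of the sterol regulators was -0.12, since ECM22 alone was left. ERG13 turned to -0.0020 when each array was centered on its median, a step under which the call of ERG10 was also lost (0.17). Some genes gained a call: ERG3 with each ORF's own variance, and DAN1 and ERG5 with same-numbered arrays averaged. At an unadjusted one-sided p of 0.05 in limma, AUS1, ERG5 and ERG25 gained one as well. Leaving out 1 array at a time gave ranges that crossed 0 for ERG13 (-0.013 to 0.053), HMG1 (-0.049 to 0.031) and DAN1 (-0.0037 to 0.29), which were not called. In those fits 5 to 6 sterol genes were called higher and 8 to 10 lower, beside 1725 to 2022 and 1533 to 1840 of all ORFs. The median of the uptake and storage genes ran from -0.0037 to 0.16. The cause of these changes was not tested.

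Replicate numbers did not pair the arrays (correlation of deviations 0.01 over 5231 ORFs). With the replicate block, limma called 6 sterol genes higher and 9 lower, and 1799 and 1702 of all ORFs. The small number of arrays limits what can be detected, and the promoter motif alternative was not run.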
